A study of Mus musculus with 8 samples.

Results

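Antioxidant defence enzymes were followed through 10 genes of the left ventricle: the superoxide dismutases Sod1, Sod2 and Sod3, the catalase gene Cat, the glutathione peroxidases Gpx1, Gpx3 and Gpx4, the thioredoxin reductase Txnrd1, the haem oxygenase Hmox1 and the quinone reductase Nqo1. They were selected by gene symbol and are 10 of the 55679 genes in the expression table. All 10 were among the 19364 genes that passed the filter on low values. The libraries came from male wild-type C57BL/6J mice whose age was not given in the sources used here. In the control group, 4 libraries came from mice given saline for 7 days by a pump under the skin. The ANG II group of 4 libraries came from mice given angiotensin II (ANG II), a pressor peptide hormone, infused at 1500 ng/kg/min over the same 7 days. RNA was taken from whole ventricle after the heart had been flushed with saline, so that all cell types of the wall contributed to each value. Values are FPKM, a fragment count corrected for the length of the transcript and the size of the library. Comparisons between genes rest on the length used and comparisons between libraries on the scaling, and values under other choices of both are given below.

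Superoxide is a by-product of mitochondrial respiration and a product of NADPH oxidases, which ANG II is known to activate in the heart and vessels. Superoxide dismutases turn it into hydrogen peroxide in the cytosol (Sod1), the mitochondrial matrix (Sod2) and the extracellular space (Sod3). Catalase and the glutathione peroxidases then remove the peroxide, thioredoxin reductase keeps thioredoxin in its reduced form, and haem oxygenase 1 and quinone reductase 1 remove free haem and quinones. Hmox1, Nqo1 and Txnrd1 are textbook targets of the transcription factor NRF2, which binds antioxidant response elements in their regulatory DNA.

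The recovered depth was 14457135 to 16566028 mapped fragments per library, and 112 to 10401 fragments lay behind each value of an antioxidant enzyme. Mitochondrially encoded genes took 26.3% to 26.95% of the fragments in control libraries and 19.2% to 21.8% in ANG II libraries. The median gene tested lay 0.15 log2 units higher in ANG II as deposited, and 0.00 higher after median-of-ratios scaling. Of all genes called, 90.8% were called higher as deposited, against 67.5% under median-of-ratios scaling, 58.9% under quantile normalization and 78.3% after rescaling to a common total without mitochondrially encoded genes and the 10 highest genes. The labels' note on RNA extraction speaks of CRC cells, although the tissue is labelled left ventricle. The 7 cardiomyocyte markers summed to 41593 to 42518 FPKM in control and to 30431 to 33352 FPKM in ANG II libraries, and 2 of them were called lower. Fewer cells of a type and less RNA per cell cannot be told apart in such samples.

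Calls required an adjusted p under 0.05 in limma (Benjamini-Hochberg over 19364 genes) together with a log2 fold change beyond 0.5 in either direction. Gpx3, Hmox1, Gpx1 and Sod3 rose in ANG II, by 1.83 to 5.06 times their control means. These 4 of 10 genes compare with 14.0% of all genes tested that were called higher. All 4 were also called higher under median-of-ratios scaling, quantile normalization, the common total and voom on recovered fragments, where 8.62%, 7.3%, 10.2% and 18.9% of all genes tested were. No enzyme was called lower, against 1.41% of all genes tested, although limma gave Sod2 an unadjusted p under 0.05 in that direction, and voom also called 0, against 2.04% of all genes. Median-of-ratios scaling, quantile normalization and the common total called 1 enzyme lower, Sod2. Nqo1, Gpx4 and Sod2 passed the p threshold and missed the fold threshold. An adjusted p under 0.05 was reached by 6 enzymes with higher and 1 enzyme with lower values, against 28.4% and 4.91% of all genes tested. The groups did not overlap, with ANG II higher, for 5 enzymes, where 28.7% of all genes tested showed the same and 33.7% did so in either direction. The median log2 fold change of the 10 genes was 0.29 as deposited, beside 0.15 for all genes tested, and 0.07 under median-of-ratios scaling, beside 0.00.

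**Figure D1:**
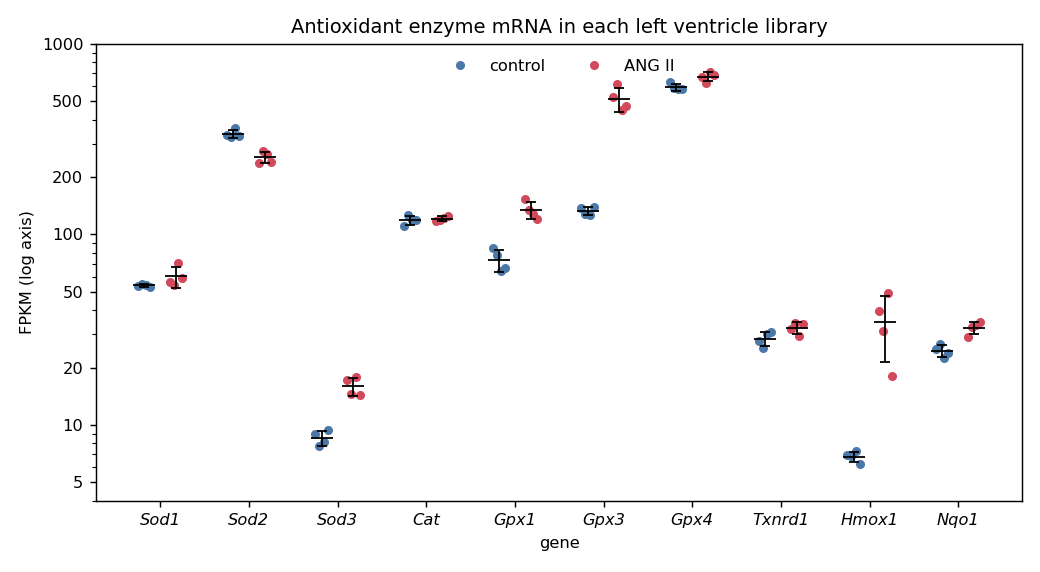
FPKM on a log axis of each antioxidant enzyme gene in each of the 4 control libraries (blue) and 4 ANG II libraries (red), with the mean as a long bar and the SD as whiskers. Gpx3 moved from 133 to 514 FPKM and Hmox1 from 6.83 to 34.5 FPKM with no overlap between the groups, while the points of Cat lie at the same height in both groups.

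In control ventricles, Gpx4 had the highest level per length (593 ± 25.3 FPKM, SD, n = 4), followed by Sod2, Gpx3, Cat, Gpx1, Sod1, Txnrd1, Nqo1, Sod3 and Hmox1. The libraries of neighbours in this order overlapped only for Gpx3 with Cat and for Txnrd1 with Nqo1. In ANG II ventricles the order was Gpx4, Gpx3, Sod2, Gpx1, Cat, Sod1, Hmox1, Nqo1, Txnrd1 and Sod3, with overlaps of Gpx1 with Cat, of Hmox1 with Nqo1 and of Nqo1 with Txnrd1. Hmox1 moved from rank 10 to rank 7, and Gpx3 passed Sod2. Places in the order depend on the transcript length, most of all those of Sod1 and Sod2. The deposited values fit the mean length of all annotated transcripts, which is 2305.5 bases for Sod1 although its single coding transcript has 641, and 1734 bases for Sod2 although its longest coding transcript has 5861. Taken per length of the longest coding transcript, Sod1 would stand at 194 ± 3.16 and Sod2 at 99.7 ± 5.12 in control (SD, n = 4). By this length Hmox1 moved from rank 10 to rank 8, Nqo1 stood above Txnrd1 in control, and Gpx3, Cat and Gpx1 each stood a place lower there. Ratios between groups within a gene are not touched by this choice.

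Promoter sequence was available for 8 of the 10 genes, at 13 transcription starts in RefSeq (GRCm38.p6), and Hmox1 and Sod3 were the 2 without an entry. The 250 bases before each start were searched on both strands for the core of the antioxidant response element, TGACNNNGC, and for 3 common promoter motifs, the GC box GGGCGG, the CCAAT box CCAAT and the TATA box TATAAA. The response element core was found before Sod1, at −56, and before 1 of the starts of Txnrd1, at −92, on the opposite strand in both. The same letters stood before 10.2% of all 32851 promoters. The GC box stood before 32.7%, the CCAAT box before 33.8% and the TATA box before 12.4% of them. No match to the core lay in this window of Gpx3 or Gpx1, which were called higher, or of Nqo1, Sod2, Cat or Gpx4. The stretches below, from the plus strand and 100 bases each, are shown because they set the enzyme with the lowest adjusted p (Gpx3) and the one with lower values (Sod2) beside the 2 with a core match. Capitals mark motif matches on either strand, and a match is a description of letters only.
Gpx3, chr11:54902672-54902771: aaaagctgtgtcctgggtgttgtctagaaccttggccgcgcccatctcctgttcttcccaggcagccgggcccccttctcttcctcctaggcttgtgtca
Sod2, chr17:13007717-13007816: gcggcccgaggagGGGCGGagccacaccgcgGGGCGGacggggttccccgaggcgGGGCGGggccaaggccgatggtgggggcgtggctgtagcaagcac
Sod1, chr16:90220654-90220753: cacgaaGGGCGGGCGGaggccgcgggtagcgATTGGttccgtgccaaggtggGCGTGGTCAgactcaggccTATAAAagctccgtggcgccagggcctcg
Txnrd1, chr10:82859079-82859178: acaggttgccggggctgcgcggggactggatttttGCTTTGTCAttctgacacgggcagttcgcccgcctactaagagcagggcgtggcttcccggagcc
The stretch of Sod2 holds GC boxes alone, that of Sod1 holds all 4 motifs with the GC boxes overlapping, that of Txnrd1 holds the core (GCTTTGTCA) alone, and that of Gpx3 holds none. The stretches end before the transcription start, that of Gpx3 the farthest from it, and other matches lie outside them. For Gpx3 these are a GC box at −49 and a CCAAT box at −8, and for Txnrd1 a GC box at −196 and a CCAAT box at −163. For Sod2 they are a GC box at −124 and a CCAAT box at −12, and for Sod1 GC boxes at −146 and −141.

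Among the superoxide dismutases, the extracellular Sod3 rose, and the mitochondrial Sod2 had lower values in every ANG II library. Sod3 (ENSMUSG00000072941, chr5:52363791-52371418, plus strand) encodes the secreted dismutase that binds to the matrix around cells. Its level was 8.99, 7.71, 8.14 and 9.39 FPKM in control libraries 1 to 4 and 17.2, 14.6, 17.8 and 14.4 FPKM in ANG II libraries 1 to 4. Every ANG II library lay above every control library. The means were 8.56 ± 0.769 and 16.0 ± 1.74 FPKM (SD, n = 4 each), a ratio of 1.87. On the log2(FPKM + 1) scale the difference was 0.83 (SE 0.09), with a limma adjusted p of 0.000150.

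Sod2 (ENSMUSG00000006818, chr17:13006846-13040063, plus strand) encodes the manganese dismutase of the mitochondrial matrix. Control libraries held 334, 323, 362 and 328 FPKM, and ANG II libraries held 237, 273, 266 and 240 FPKM. All 4 ANG II libraries were lower than the lowest control library, where 5.06% of all genes tested did not overlap in that direction. Its mean was 337 ± 17.3 FPKM in control against 254 ± 17.9 FPKM with ANG II (SD, n = 4 each), a ratio of 0.753. A log2 difference of −0.41 (SE 0.06, limma adjusted p = 0.000825) fell short of the fold threshold as deposited. It passed that threshold and was called lower under median-of-ratios scaling (−0.64), quantile normalization (−0.55) and the common total (−0.56), where 4.15%, 5.09% and 2.84% of all genes tested were called lower. Of its 50-base words, 21.0% also occurred in transcripts of other genes, mostly in AC166110.4, which stood near 0 FPKM in every library.

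Sod1 (ENSMUSG00000022982, chr16:90220754-90226329, plus strand) encodes the copper and zinc dismutase of the cytosol. It measured 54.0, 54.9, 54.5 and 52.8 FPKM in control and 56.4, 54.3, 71.2 and 59.2 FPKM in ANG II libraries. ANG II library 3 stood above the rest, and ANG II library 2 lay within the control range. A log2 difference of 0.15 had a 95% interval from −0.03 to 0.32 (limma adjusted p = 0.182), and the difference was −0.02 with quantile normalization and −0.08 with median-of-ratios scaling.

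As shares of the summed FPKM of the 3 dismutases, Sod2 took 84.3 ± 0.644% in control against 76.9 ± 2.09% with ANG II (SD, n = 4 each). Sod3 took 2.15 ± 0.228% in control and 4.86 ± 0.538% in ANG II. The share of Sod1 was 13.5 ± 0.564% and 18.2 ± 1.77%. The groups did not overlap in any of these shares. With the longest coding transcript as the length, Sod2 took 32.9 ± 1.08% and 24.5 ± 2.33%, so the level of the share rests on the length and its direction does not. The summed FPKM was 399.5 ± 17.4 in control against 330.1 ± 21.4 with ANG II (SD, n = 4 each) as deposited, but 303 ± 6.22 and 308 ± 29.99 with the longest coding transcripts.

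**Figure D2:**
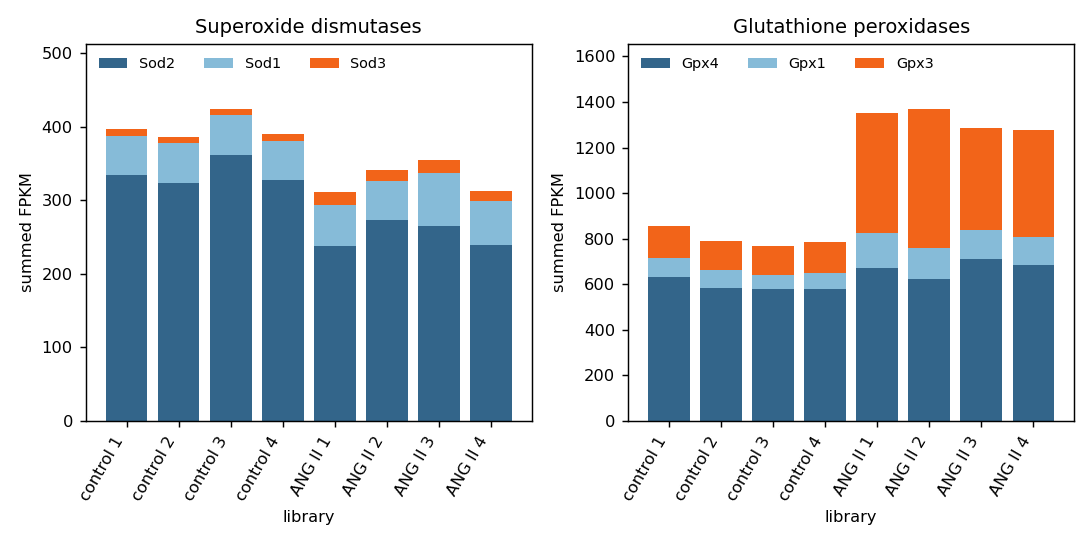
Stacked bars of FPKM in each library, as deposited, for the 3 superoxide dismutases (left) and the 3 glutathione peroxidases (right), with 4 control libraries followed by 4 ANG II libraries. Sod2 shrinks and Sod3 grows within the dismutases, while the orange part of Gpx3 grows most within the peroxidases, whose sum goes from 799 to 1321 FPKM on average.

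Of the enzymes that remove hydrogen peroxide, Gpx3 and Gpx1 rose, and Gpx4 and Cat were not called. Gpx3 (ENSMUSG00000018339, chr11:54902453-54910377, plus strand) encodes the secreted glutathione peroxidase found in plasma and matrix. It stood at 138, 128, 126 and 139 FPKM in control and at 524, 613, 450 and 471 FPKM in ANG II libraries. The lowest ANG II library was over 3 times the highest control library. The means were 133 ± 6.58 and 514 ± 72.8 FPKM (SD, n = 4 each), a ratio of 3.87. The log2 difference was 1.94 (SE 0.09, limma adjusted p = 2.36e-06), which placed Gpx3 at rank 112 of 19364 genes by log2 fold change. It lay between 1.71 and 2.00 over the alternatives.

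Gpx1 (ENSMUSG00000063856, chr9:108338903-108340343, plus strand) encodes the abundant glutathione peroxidase of cytosol and mitochondria, which is also rich in red blood cells. Its level was 84.9, 77.96, 64.1 and 67.1 FPKM in control libraries and 154, 135, 129 and 121 FPKM in ANG II libraries. No ANG II library reached down to a control library, and within both groups replicate 1 was the highest. The means were 73.5 ± 9.65 and 135 ± 14.2 FPKM (SD, n = 4 each), a ratio of 1.83. The log2 difference was 0.87 (SE 0.10, limma adjusted p = 0.000191).

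Gpx4 (ENSMUSG00000075706, chr10:80047166-80056439, plus strand) encodes the peroxidase that reduces lipid peroxides within membranes. Control libraries held 631, 584, 577 and 580 FPKM, and ANG II libraries held 673, 622, 709 and 685 FPKM. The groups overlapped, since control library 1 lay above ANG II library 2. The log2 difference was 0.18 (SE 0.06, limma adjusted p = 0.0341), below the fold threshold. The adjusted p lay between 0.0161 and 0.0908 when single libraries were left out, above 0.05 in 6 of 8 such fits, and the difference was −0.05 under median-of-ratios scaling. The sequence of Gpx4 is 34.7% shared, in 50-base words, with the processed copy Gpx4-ps2, which measured 20.6 ± 2.93 FPKM in control against 19.7 ± 2.62 FPKM with ANG II (SD, n = 4 each).

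Cat (ENSMUSG00000027187, chr2:103453849-103485160, minus strand) encodes the peroxisomal catalase. It measured 110, 127, 119 and 119 FPKM in control and 118, 119, 122 and 125 FPKM in ANG II libraries. The ANG II libraries all fell within the control range. The fitted log2 difference of 0.03 had a 95% interval from −0.09 to 0.14 (limma adjusted p = 0.713). It was −0.20 under median-of-ratios scaling (adjusted p = 0.0255), −0.12 with the common total and −0.15 under quantile normalization.

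Within the summed FPKM of the 3 glutathione peroxidases, Gpx3 took 16.6 ± 0.690% in control against 38.8 ± 4.24% with ANG II (SD, n = 4 each). Gpx4 took 74.2 ± 0.681% in control and 50.98 ± 4.33% with ANG II, and the groups did not overlap. Gpx1 held 9.18 ± 0.845% and 10.2 ± 0.851%, with overlapping libraries. The summed level was 799 ± 37.7 FPKM in control against 1321 ± 46.4 FPKM with ANG II. All 10 enzymes together summed to 1377 ± 29.5 and 1872 ± 52.6 FPKM, of which Gpx3 took 9.64 ± 0.448% and 27.4 ± 3.30%.

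Among the classical NRF2 targets, Hmox1 rose and Nqo1 and Txnrd1 were not called. Hmox1 (ENSMUSG00000005413, chr8:75093621-75100589, plus strand) encodes the inducible haem oxygenase, which splits haem into biliverdin, iron and carbon monoxide. It stood at 6.96, 6.84, 7.26 and 6.25 FPKM in control libraries and at 39.7, 31.2, 49.2 and 18.1 FPKM in ANG II libraries. The ANG II libraries were far apart from each other, with library 3 the highest and library 4 the lowest, but each lay above all controls. The means were 6.83 ± 0.426 and 34.5 ± 13.2 FPKM (SD, n = 4 each), a ratio of 5.06. The log2 difference was 2.10 (SE 0.24, limma adjusted p = 0.000195) and ranged from 1.90 to 2.37 when single libraries were left out.

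Nqo1 (ENSMUSG00000003849, chr8:107388225-107403206, minus strand) encodes the enzyme that reduces quinones to hydroquinones. Its level was 25.1, 26.7, 22.4 and 24.0 FPKM in control and 29.1, 32.7, 33.3 and 34.7 FPKM in ANG II libraries. The groups did not overlap. The means were 24.5 ± 1.81 and 32.5 ± 2.36 FPKM (SD, n = 4 each), a ratio of 1.32. The log2 difference of 0.39 (SE 0.07, limma adjusted p = 0.00260) missed the fold threshold. Its adjusted p was 0.0915 with quantile normalization and 0.106 with median-of-ratios scaling.

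Txnrd1 (ENSMUSG00000020250, chr10:82833951-82897712, plus strand) encodes the cytosolic selenoenzyme that reduces thioredoxin with NADPH. Control libraries held 27.6, 25.3, 29.9 and 30.6 FPKM, and ANG II libraries held 32.1, 34.3, 29.3 and 34.0 FPKM. ANG II library 3 lay within the control range. The log2 difference, 0.19, had a 95% interval from 0.02 to 0.36 (limma adjusted p = 0.0834). Quantile normalization gave −0.01 and median-of-ratios scaling −0.03, and without ANG II library 3 the adjusted p was 0.0403.

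For the 6 enzymes without a called change, an exact permutation test (two-sided, 70 allocations) gave p = 0.0286 for Sod2 and Nqo1, the smallest value that 4 against 4 allows. The exact test gave p = 0.0571 for Gpx4, p = 0.0857 for both Sod1 and Txnrd1 and p = 0.6 for Cat. The 4 called enzymes all reached the smallest value.

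**Figure D3:**
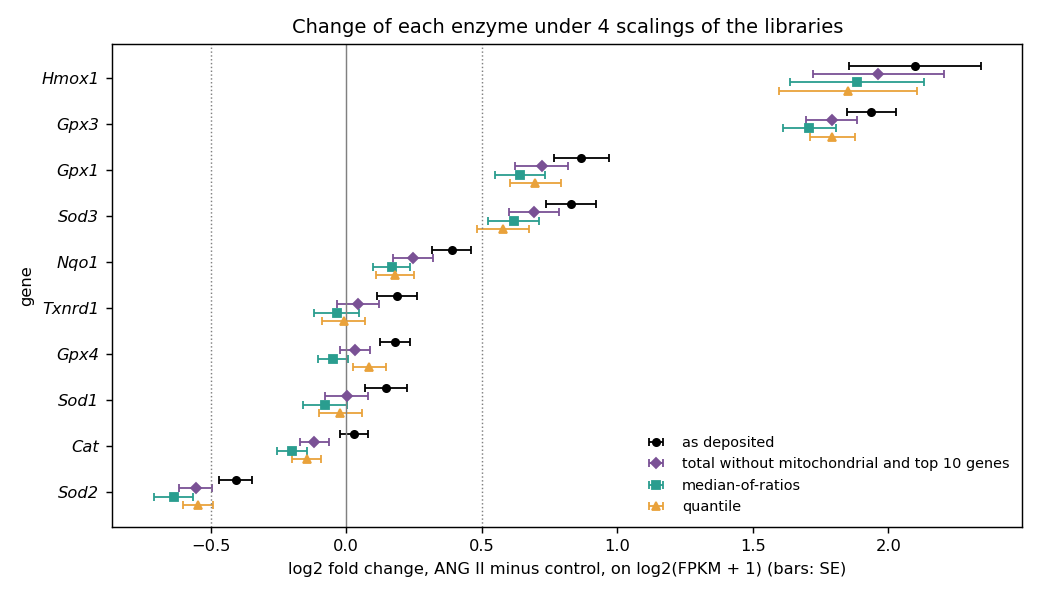
Log2 fold change of each antioxidant enzyme (ANG II minus control, on log2(FPKM + 1), bars give the SE) for the values as deposited and for 3 other scalings of the libraries, with dotted lines at the fold threshold of 0.5 in each direction. Hmox1, Gpx3, Gpx1 and Sod3 lie above 0.5 under all 4 scalings, Sod2 lies below −0.5 under 3 of them, and Txnrd1, Gpx4, Sod1 and Cat lie near 0.

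Marker sums of several other cell types were higher in the ANG II libraries. The 8 macrophage markers summed to 269 to 341 FPKM in control and 595 to 828 FPKM in ANG II libraries, with 7 of 8 called higher. In ANG II libraries 1 to 4, which held 39.7, 31.2, 49.2 and 18.1 FPKM of Hmox1, the macrophage sums were 735, 595, 828 and 607 FPKM. The 7 fibroblast markers summed to 472 to 705 and 2805 to 3351 FPKM, and all 7 were called higher. All 5 erythroid markers were called higher and summed to 96.8 to 487 FPKM in control and 581 to 2083 FPKM in ANG II libraries, although the hearts had been flushed. In ANG II libraries 1 to 4 the erythroid sums were 975, 2083, 1330 and 581 FPKM, and in control libraries 1 to 4 they were 487, 96.8, 112 and 162 FPKM. The 3 neutrophil markers tested were called higher and summed to 2.57 to 5.66 and 7.58 to 19.8 FPKM. The 4 atrial markers summed to 7.72 to 58.5 FPKM in control and 195 to 339 FPKM in ANG II libraries, with 2 of 4 called higher and a median log2 fold change of 2.30. Their sums in ANG II libraries 1 to 4 were 277, 227, 339 and 195 FPKM. Of the other lists, 1 of 5 endothelial, 1 of 4 smooth muscle and 1 of 4 T cell markers were called higher, and no B cell, adipocyte or mesothelial marker was called. No marker list had a member at 0 in all libraries. The part of these cells in the changes of Gpx1, Gpx3, Hmox1, Sod3 and Sod2 was not tested.

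The wider antioxidant system was read from 14 lists with 154 genes, of which 146 were tested. Of these, 29 (Prdx4 among them) were called higher and 1 (Gstk1) was called lower, beside 14.0% and 1.41% of all genes tested, with a median log2 fold change of 0.11 beside 0.15. Median-of-ratios scaling gave 15 higher and 10 lower calls (8.62% and 4.15% of all genes), quantile normalization 16 and 10 (7.3% and 5.09%). Every count of a list below can be read against these shares. The list medians of the peroxiredoxins, the thioredoxins, NRF2 with its regulators and selenoprotein synthesis were above 0 as deposited and below 0 under median-of-ratios scaling.

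**Figure D4:**
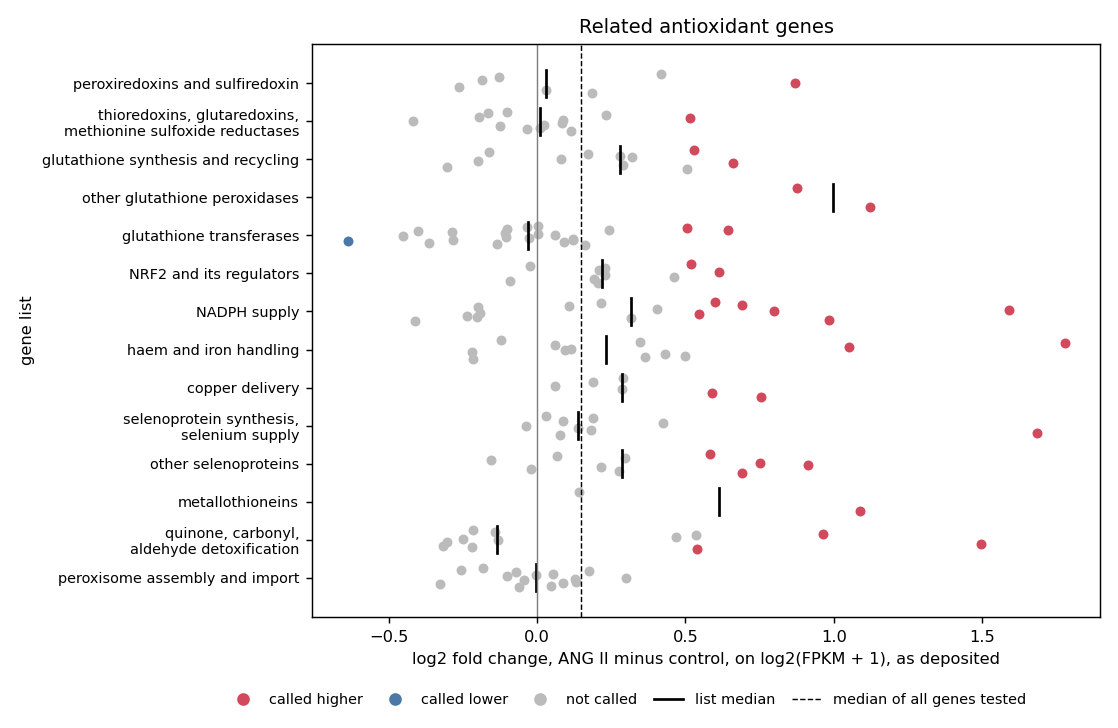
Log2 fold change (ANG II minus control, on log2(FPKM + 1), as deposited) of each tested gene in 14 lists of related antioxidant genes, with called genes in red (higher) and blue (lower), list medians as black bars and the median of all genes tested (0.15) as a dashed line. The other glutathione peroxidases lie at the right (median 1.00), while peroxisome genes scatter about 0.

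Of the other glutathione peroxidases, 2 were tested and both were called. Gpx7 and Gpx8, peroxidases of the endoplasmic reticulum, both rose. Gpx7 went from 6.93 ± 1.70 to 16.1 ± 3.24 FPKM (SD, n = 4 each), a log2 difference of 1.12. Gpx8 went from 20.7 ± 2.05 to 38.7 ± 2.89 FPKM, a difference of 0.87, while Gpx5 and Gpx6 stood at 0 in every library and Gpx2 was under the filter. Of the 7 genes of peroxiredoxins and sulfiredoxin, 1 was called higher, namely Prdx4, the peroxiredoxin of the endoplasmic reticulum, at 11.1 ± 2.31 and 20.9 ± 2.98 FPKM (log2 difference 0.87). Prdx3, the mitochondrial peroxiredoxin, held 168 ± 1.25 FPKM in control against 140 ± 9.35 FPKM with ANG II, without overlap (log2 difference −0.27, limma adjusted p = 0.00351). The cytosolic Prdx1, Prdx2 and Prdx6, the widely placed Prdx5 and the sulfiredoxin Srxn1 had differences of 0.19, 0.03, −0.13, −0.19 and 0.42 and were not called.

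The lists were then counted by the known place of the proteins, a grouping made after the values were seen, in which some proteins have more than 1 place, and given without a test. Of 21 genes of mitochondrial proteins, 16 had a negative log2 fold change as deposited, with a median of −0.19 beside 0.15 for all genes tested. Among them 3 (Mthfd2, Mthfd1l and Me2) were called higher, a share near the 14.0% of all genes, and 1 (Gstk1) was called lower. Under median-of-ratios scaling 2 were called higher and 4 lower, with a median of −0.41 beside 0.00. Of 15 genes of endoplasmic reticulum proteins, 13 had a positive log2 fold change and 7 were called higher as deposited, with a median of 0.30. Under median-of-ratios scaling 8 of the 15 were positive and 6 were called higher, with a median of 0.08. The member Sod2, a mitochondrial enzyme outside these lists, differed by −0.41. Mitochondrially encoded transcripts took a smaller share of the same ANG II libraries, and their part in these counts was not tested.

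In the thioredoxin list, 1 of 13 genes was called higher, Txn1, the cytosolic thioredoxin that Txnrd1 reduces, at 34.4 ± 3.70 and 49.7 ± 6.82 FPKM (SD, n = 4 each). For glutathione synthesis and recycling, 2 of 11 tested genes rose. Gclm, the modifier subunit of the first enzyme of glutathione synthesis, went from 19.1 ± 2.38 to 30.7 ± 1.76 FPKM (log2 difference 0.66). Slc3a2, the heavy chain of the cystine importer, went from 33.6 ± 3.11 to 49.3 ± 9.34 FPKM (0.53). The other chain of that importer, Slc7a11, was under the filter, at 0.00875 FPKM in control and 0.167 FPKM with ANG II on average. With median-of-ratios scaling and with quantile normalization neither list kept a gene called higher, and each had 1 called lower, Msrb2 in the first and Chac2 in the second. Among 22 glutathione transferases tested, Gstt3 (log2 difference 0.64) and Mgst1 (0.51) rose and Gstk1, a mitochondrial and peroxisomal transferase, fell (−0.64). The median of the transferases was −0.03. Both higher calls were lost with median-of-ratios scaling, where 4 transferases were called lower, and with quantile normalization, where 5 were.

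Of NRF2 and its regulators, 2 of 10 genes rose, a share near the 14.0% of all genes tested. The NRF2 gene itself, Nfe2l2, held 37.7 ± 3.33 and 44.4 ± 4.39 FPKM (SD, n = 4 each) with overlapping groups (log2 difference 0.23, limma adjusted p = 0.0648). Mafk, a small partner protein of NRF2, held 20.3 ± 1.27 and 31.8 ± 3.86 FPKM (SD, n = 4 each), a log2 difference of 0.61. Sqstm1, which binds the NRF2 inhibitor KEAP1, held 283 ± 19.1 and 406 ± 40.6 FPKM, a difference of 0.52. Both calls were lost with median-of-ratios scaling and with quantile normalization.

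Copper and selenium genes were examined because Sod1 and Sod3 need copper and Gpx1, Gpx3, Gpx4 and Txnrd1 are selenoproteins. Atox1, the chaperone that hands copper to the secretory pathway, measured 28.1, 29.4, 29.6 and 27.9 FPKM in control and 48.5, 49.1, 52.3 and 47.0 FPKM in ANG II libraries. The groups lay well apart, with a log2 difference of 0.76 (limma adjusted p = 1.02e-05). Atp7a, the pump that loads copper onto secreted enzymes such as Sod3, went from 2.38 ± 0.214 to 4.07 ± 0.246 FPKM (0.59, SD, n = 4 each). It was not called under median-of-ratios scaling or quantile normalization. Ccs, the chaperone of Sod1, differed by 0.29 and was not called, as were the copper importer Slc31a1 (0.19), Slc31a2 (0.29) and the mitochondrial chaperone Cox17 (0.06), while Atp7b was under the filter. Among 9 genes of selenoprotein synthesis and selenium supply, 1 was called, Lrp8, a receptor for the selenium carrier, at 0.265 ± 0.196 and 3.07 ± 0.655 FPKM (log2 difference 1.68). Of 10 other selenoproteins, 4 rose, led by Selenom (0.91), Selenon (0.75) and Selenof (0.69), all proteins of the endoplasmic reticulum. Median-of-ratios scaling left 2 of these 4 calls, Selenom and Selenon, and quantile normalization left 3.

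Genes that supply NADPH or handle haem and metals also held called members. Of 15 NADPH genes, 6 rose, among them G6pdx, the first enzyme of the pentose phosphate pathway, which went from 4.84 ± 0.723 to 10.6 ± 2.08 FPKM (log2 difference 0.98, SD, n = 4 each). Mthfd2, a mitochondrial folate enzyme, went from 3.31 ± 0.551 to 11.97 ± 1.61 FPKM (1.59) and Mthfd1l from 0.218 ± 0.0835 to 1.13 ± 0.288 FPKM (0.80). Both folate genes and G6pdx remained called under median-of-ratios scaling, while Pgd, Tkt and Me2 did not, and Aldh1l2 was called lower there and with quantile normalization. Of 12 haem and iron genes tested, 2 rose. Ftl1, the ferritin light chain, whose reads can be split with near-identical copies, went from 8.90 ± 0.976 to 19.7 ± 4.13 FPKM (1.05). Hp, the haemoglobin-binding haptoglobin, went from 1.47 ± 0.988 to 7.95 ± 5.08 FPKM (1.78), the ANG II libraries lying between 2.46 and 14.5. Hmox2, the constitutive haem oxygenase, stood at 40.6 ± 2.05 and 42.4 ± 2.63 FPKM (0.06) and was not called. Mt1, a metal-binding metallothionein, went from 69.8 ± 9.84 to 149 ± 19.2 FPKM (1.09), while Mt2 was listed at 0 in every library and Mt3 differed by 0.14. Of 12 genes of quinone, carbonyl and aldehyde detoxification, 3 rose, namely Akr1b8 (1.5), Ephx1 (0.96) and Akr1a1 (0.54), beside a list median of −0.14. Akr1a1 was not called with median-of-ratios scaling or with quantile normalization. Under the first, 2 genes of this list, Akr1b3 and Aldh2, were called lower, and under the second 1, Aldh2. Of 15 peroxisome assembly genes, limma and voom called 0 as deposited, with 6 at an unadjusted p under 0.05 in limma and a median of 0.00. Pex11a was called lower with median-of-ratios scaling and with quantile normalization, where the list medians were −0.22 and −0.26.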

How the data were processed

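The authors deposited 1 table of FPKM values, with 1 column per library and no pooled column, and 0 of its sample columns were left out. The submitters' processing notes name HISAT, Bowtie2 and RSEM without versions, and the genome build and annotation were not given in the sources used here. The labels mark the 8 libraries as separate samples, and p-values measure the spread between these libraries. The study describes its sequencing replicates as biological, while the sample titles give only a group and a number. Of 55679 rows, 27083 were at 0 throughout, and 55141 gene IDs were found in GENCODE M21 (GRCm38), which gave positions and transcripts. For 1 listed symbol with 2 rows (Nnt), the row with the higher mean was used. The members and gene lists were chosen with earlier results of these data known.

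Genes averaging 0.1 FPKM or more (19364) were tested on log2(FPKM + 1) with limma 3.58.1 in R 4.3.3 (lmFit, eBayes with a variance trend, no covariate). The study names limma and edgeR with these thresholds, and edgeR was not used because FPKM are no counts. Differences are on that scale and understate changes of low genes. P-values were two-sided, with Benjamini-Hochberg adjustment over all genes tested. Single members were also compared by an exact permutation test in Python 3.11.15. The script was tested on simulated data. Named genes were the 10 members, up to 3 called genes per list with the largest change and a group mean of at least 1 FPKM, and all genes of lists of at most 7. Genes outside this rule (Nfe2l2, Slc7a11, Hmox2, Pgd, Tkt, Me2, Msrb2, Chac2, Aldh1l2, Akr1b3, Aldh2, Pex11a, Gpx4-ps2 and AC166110.4) were named after their values were seen.

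Fragments were recovered from the steps of FPKM times mean transcript length. Within a tolerance of 0.02 and under 60 fragments, 99.0% to 99.1% were whole for genes with 1 transcript and 95.5% to 96.2% for genes with several. The smallest chi-square per gene between libraries of a group was 6.90, and no pair of libraries was counted as 1. Replicate numbers were not treated as pairs in the main fit. Correlations of same-numbered libraries lay between −0.03 and 0.06, and those of the other pairs between −0.09 and 0.09. With so few libraries these values cannot exclude a pairing. Each alternative altered a single choice, namely scaling, pseudocount, filter, variance trend, replicate block, fold threshold or a library left out. Voom on recovered fragments and shares by the longest coding transcript were chosen after seeing the data. Words of 50 bases were used for shared sequence.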

Additional observations from a re-analysis of the deposited data

Results flagged for a closer look

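Of 32 groups of 4 libraries examined, 3 held a library whose gap to the nearest other exceeded Dixon's 95% critical value, and chance gives about 1 in 20 groups. Gpx4 stood at 631 FPKM in control library 1, above the 577 to 584 FPKM of the other controls. Gpx3 took 17.6% of the glutathione peroxidase sum in control library 4, the highest of its group. Gpx4 took 75.2% of that sum in control library 3, the highest of its group. Both shares are parts of 1 sum and are not independent of each other.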

How the results depend on the processing

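The calls of Gpx3, Hmox1, Gpx1 and Sod3 held in all 17 alternative fits each, and only a fold threshold of 1 left 2 of the 4, Gpx3 and Hmox1. The number of enzymes called lower was 1 (Sod2) under the common total, median-of-ratios scaling, quantile normalization and a fold threshold of 0. Over all genes, 6447 were called at a fold threshold of 0 and 795 at 1. Of the related genes, 18 were called higher under the common total, 15 under median-of-ratios scaling, 16 under quantile normalization, 47 at a threshold of 0 and 7 at 1. Called lower were 5 under the common total, 10 under median-of-ratios scaling, 10 under quantile normalization, 2 with a pseudocount of 0.1, 2 with voom, 17 at a threshold of 0 and 0 at 1, and between 1 and 2 when single libraries were left out, with 2 without control library 3. The log2 difference changed sign for Sod1 (−0.079 median-of-ratios, −0.021 quantile), Cat (−0.20 median-of-ratios, −0.15 quantile, −0.12 common total, from −0.0064, without control library 1, to 0.061 when single libraries were left out), Gpx4 (−0.049 median-of-ratios) and Txnrd1 (−0.035 median-of-ratios, −0.0099 quantile), none of which was called as deposited. The cause was not tested. With the replicate block, 2968 genes, 4 enzymes higher and 0 lower, and 28 related genes higher and 1 lower were called, and the adjusted p of Gpx4 was 0.0765. With 4 libraries a group, intervals of the uncalled enzymes still include small changes in either direction for Sod1 and Cat. Fragments behind Hmox1 numbered 112 to 141 in control libraries, the fewest of the 10, and intervals from fragments would cover counting error only.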
